A study of Mus musculus with 22 samples.

Results

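CpG-dense promoter tiles are 100 bp windows at gene starts that hold many of the CG dinucleotides (CpGs) at which mammalian DNA is methylated. A tile was taken when the distance of its midpoint from a transcription start site (TSS) in the RefSeq annotation of GRCm38 was at most 1000 bp on the upstream side or 100 bp on the downstream side, on chromosomes 1 to 19. It had to hold at least 8 distinct CpGs seen in any library. At least 2 CpGs had to be covered by 10 or more reads on a strand, in at least 5 embryos of each condition. Of 114430 analysed tiles, 33695 lay in a promoter window and 21164 (18.5%) met the rule on CpG number. They were nearest to the start of 9269 genes, with a median of 2 tiles and at most 17 tiles per gene. The methylation level of a tile is the share of its reads that were methylated, in percent. A read was counted once at each CpG it covered, so the reads of a tile are calls at CpGs.

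DNA methylation was measured by reduced representation bisulfite sequencing, in which MspI fragments rich in CpGs are sequenced after unmethylated cytosines have been converted. All samples were forebrains of wild type C57BL/6 embryos at embryonic day 10.5. The 6 control embryos came from mothers given saline and the 16 EtOH-exposed embryos from mothers given ethanol, in both cases by injection under the skin at a pre-implantation stage. The embryos had no visible defect and were picked at random from litters, so several shared a mother. No label ties a sample to its litter or sex, so any test over embryos treats as independent samples some that are not, and male and female embryos were not compared here.

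Stretches rich in CpGs, called CpG islands, mark the starts of most housekeeping genes and of many developmental regulators in mammals, and they usually stay free of methylation whether or not the gene is transcribed. Known exceptions are imprinted genes, where the copy from 1 parent is methylated, and a set of genes used in germ cells, whose CpG-rich starts become methylated in the cells of the body after implantation. Enzymes that copy methylation after each round of DNA replication maintain such patterns once they are set. Those of imprinted genes are maintained through the divisions that follow fertilization.

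Sequences of 10 tiles, read on the plus strand of the reference genome (RefSeq, GRCm38), are printed because they show that tiles dense in CpGs took levels from near 0 to near 100%: 5 that were free of methylation, 3 methylated tiles, and 2 tiles with intermediate or variable levels that were called lower after EtOH exposure. Capitals mark each CpG that lies whole inside the tile, and the percentage is the median level over the samples. The Zic2 tile lies in the window of Zic2 but nearer to the start of a neighbouring gene.
Ski tile chr4:155222801-155222900, 0.848%: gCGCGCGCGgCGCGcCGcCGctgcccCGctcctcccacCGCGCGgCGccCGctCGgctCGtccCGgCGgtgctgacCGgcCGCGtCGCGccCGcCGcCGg
Zic2 tile chr14:122475201-122475300, 0.744%: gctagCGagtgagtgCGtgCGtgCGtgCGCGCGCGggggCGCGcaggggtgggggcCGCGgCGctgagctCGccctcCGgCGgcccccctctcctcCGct
Sox2 tile chr3:34649801-34649900, 0.892%: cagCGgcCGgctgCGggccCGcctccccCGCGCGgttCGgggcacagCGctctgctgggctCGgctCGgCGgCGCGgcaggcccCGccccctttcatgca
Igf2 tile chr7:142659501-142659600, 0.697%: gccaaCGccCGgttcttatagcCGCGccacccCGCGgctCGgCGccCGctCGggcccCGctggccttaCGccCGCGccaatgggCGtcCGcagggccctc
Jade1 tile chr3:41564701-41564800, 0.651%: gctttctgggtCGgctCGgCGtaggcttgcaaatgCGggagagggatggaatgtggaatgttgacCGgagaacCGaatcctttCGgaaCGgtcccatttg
Jade1 tile chr3:41555501-41555600, 97.7%: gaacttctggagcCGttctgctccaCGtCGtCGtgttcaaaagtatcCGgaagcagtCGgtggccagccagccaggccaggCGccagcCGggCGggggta
Sycp1 tile chr3:102936101-102936200, 94.8%: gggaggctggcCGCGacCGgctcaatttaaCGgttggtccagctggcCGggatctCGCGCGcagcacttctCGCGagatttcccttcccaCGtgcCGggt
Boll tile chr1:55362901-55363000, 37.5%: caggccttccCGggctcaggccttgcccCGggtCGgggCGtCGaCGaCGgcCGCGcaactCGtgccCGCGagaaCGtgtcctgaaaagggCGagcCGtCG
Inpp5f tile chr7:128688201-128688300, 29.1%: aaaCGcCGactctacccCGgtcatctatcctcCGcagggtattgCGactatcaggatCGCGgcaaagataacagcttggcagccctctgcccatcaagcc
Rab10os tile chr12:3235501-3235600, 11.8%: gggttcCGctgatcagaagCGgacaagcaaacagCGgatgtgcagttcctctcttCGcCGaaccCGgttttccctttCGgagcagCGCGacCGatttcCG
Both Jade1 tiles lay upstream of annotated starts of the same gene and held 8 and 9 CpGs, yet 1 had a median level of 0.651% and the other of 97.7%. The Sycp1 tile, with 12 CpGs, was methylated at 94.8%, whereas the Igf2 tile with 16 CpGs in capitals stood at 0.697%.

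The libraries held 68126469 to 132488556 read calls at CpG cytosines in control embryos and 89179413 to 216223892 in EtOH-exposed embryos. CpG-dense promoter tiles had library medians of 270 to 2044 calls per tile against 157 to 749 over all analysed tiles. The median number of CpGs was 12 in the former and 5 over all tiles. As calls add up over CpGs, these totals do not show that the class was read more deeply. Libraries also differed in the level read at 7694 tiles outside promoters whose median was under 1%. This level, called here the background of a library, ranged from 0.684 to 1.60% in controls and from 0.283 to 2.60% in EtOH-exposed embryos. By this background, EtOH-exposed 4, 5 and 6 stood apart at 2.45 to 2.60%, and EtOH-exposed 1, 2, 3, 9, 12 and 14 at 0.283 to 0.342%. No control lay in either range, so library and condition cannot be told apart for these embryos.

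Nearly all CpG-dense promoter tiles were unmethylated. The median over the samples was under 5% in 20891 of 21164 tiles (98.7%) and under 1% in 17017 of them. Another 126 tiles (0.595%) stood at 5 to 20%, 77 (0.364%) at 20 to 80%, and 70 (0.331%) at 80% or more. Hence 147 tiles (0.695%), belonging to 111 genes, carried a level of 20% or more. In 83 of the 111 genes, those with a single tile included, every tile of the gene reached 20%.

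**Figure D1:**
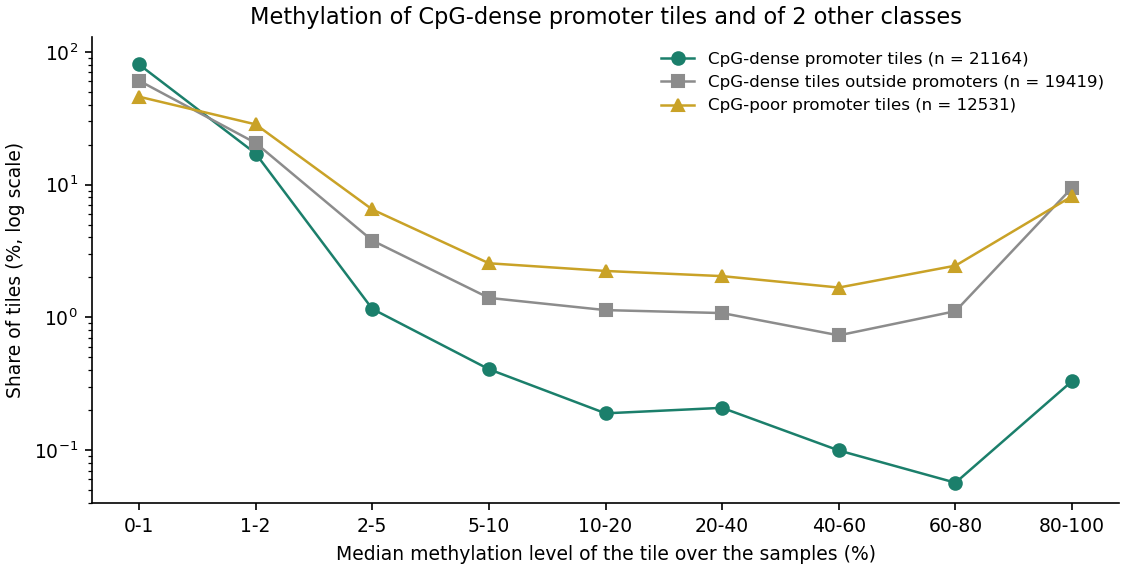
Share of tiles (percent, log axis) by the median methylation level of the tile over the samples (percent), for 21164 CpG-dense promoter tiles, 19419 CpG-dense tiles outside promoter windows and 12531 promoter tiles with under 8 CpGs. The line of CpG-dense promoter tiles is the highest of the 3 at 0 to 1% and the lowest in each class from 1% up.

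Neither CpG density alone nor a place at a gene start alone gave so low a share of methylated tiles. Of 19419 tiles with at least 8 CpGs outside promoter windows, 2407 (12.4%) reached 20%, and of 12531 promoter tiles with fewer than 8 CpGs, 1797 (14.3%) did. Over tiles with a value in every embryo, the mean level of CpG-dense promoter tiles was below that of both other classes in 22 of 22 embryos. In controls the gap to CpG-dense tiles outside promoters was -4.91 ± 0.0714 percentage points (SD, n = 6) and the gap to CpG-poor promoter tiles -6.63 ± 0.0702. The boundary at 8 CpGs was gradual rather than sharp, as 76 of 2522 promoter tiles with 7 CpGs (3.01%) and 50 of 2624 with 8 CpGs (1.91%) reached 20%. The tiles also differed in base content, with a mean GC content of 72.5% in CpG-dense promoter tiles against 59.9% in CpG-poor promoter tiles.

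Within the class, methylated tiles were more frequent where the annotation was weaker. Of 17284 tiles in the window of a curated transcript, 83 (0.480%) reached 20%, against 64 of 3880 tiles (1.65%) with only predicted transcripts. The share was 0.506% in windows of protein-coding transcripts (96 of 18962) and 2.32% where all transcripts in reach were noncoding (51 of 2202). Repeats were annotated in 30% of the tiles at 80% or more, in 13% of those at 20 to 80%, and in 19.7% of the class as a whole. The median number of CpGs was 12 in tiles under 5%, 10 in tiles at 20 to 80% and 9 in tiles at 80% or more.

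In unmethylated tiles the level followed the background of the library. Over 10496 such tiles with a value in all embryos, the mean level was 1.05 ± 0.448% in controls (n = 6) and 1.09 ± 0.811% in EtOH-exposed embryos (n = 16), with EtOH-exposed embryos spread from 0.299 to 2.60%. In each embryo this mean exceeded the background by 0.00264 to 0.0889 percentage points, 0.0413 ± 0.0241 over the 22. Unmethylated promoter tiles were read within 0.1 percentage points of the lowest tiles elsewhere in every library, while the libraries themselves differed by over 2 percentage points. Both sets were chosen by a low median over these samples, under 5% for the promoter tiles and under 1% for those elsewhere. Their closeness and the small excess can therefore follow in part from these cut-offs. After the background was subtracted and the rest rescaled, the mean level of these tiles was 0.0559 ± 0.0188% in controls and 0.0363 ± 0.0245% in EtOH-exposed embryos.

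**Figure D2:**
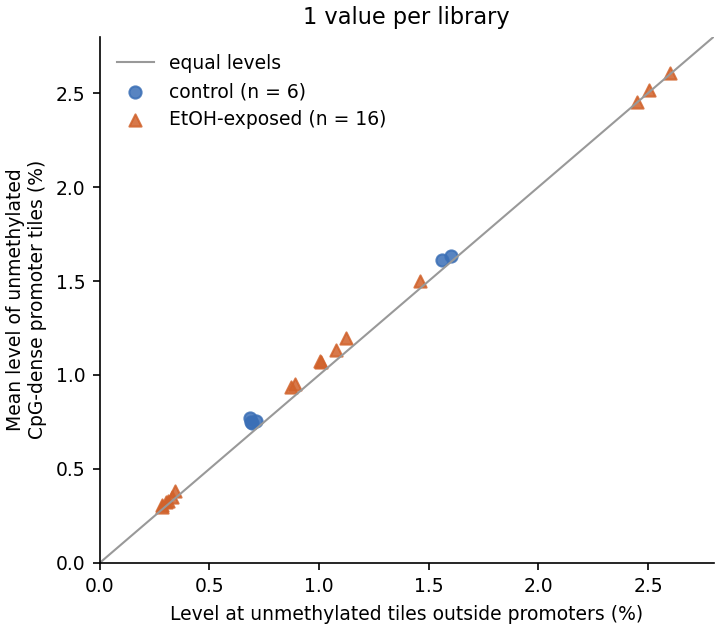
Mean level of unmethylated CpG-dense promoter tiles (percent, vertical axis) against the level of unmethylated tiles outside promoters (percent, horizontal axis), 1 point per library, for 6 control and 16 EtOH-exposed embryos; the line marks equal levels. All points lie on or just above the line, and EtOH-exposed 4, 5 and 6 lie at the far end.

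Variation between embryos was nearer to counting error at unmethylated tiles than at tiles of intermediate level. In the 4 control libraries of like background, the variance of the level was divided by the variance that drawing reads at random gives. Over 9334 unmethylated tiles with at least 10 methylated reads, this ratio had a median of 0.997 and a mean of 1.37. With 4 libraries the ratio is skewed under random drawing, with a median below its mean. The value of 0.997 therefore does not show that only counting error was present. At 35 tiles at 20 to 80% the median ratio was 4.96. These ratios cover counting error only, as reads made by PCR are not independent molecules. Calls at several CpGs of the same read are not independent either.

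The tiles with the most CpGs were among the unmethylated ones. Galnt2 (27 CpGs), which starts the attachment of sugars to serine and threonine, stood at 0.856 ± 0.344% in controls (n = 5) and 0.841 ± 0.712% in EtOH-exposed embryos (n = 16). The tile of Scn8a (27 CpGs), a voltage-gated sodium channel of neurons, had 0.464, 0.702 and 1.44% as lowest, median and highest control value, and 0.0481, 0.709 and 2.71% in EtOH-exposed embryos. At Scn8a the EtOH-exposed embryos lay on both sides of the control range. The tile of Afdn, a protein of cell junctions, and those of Hectd2, a ubiquitin ligase, and Ski, a transcriptional corepressor whose sequence was printed above, had medians of 0.697, 0.736 and 0.848%.

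Genes active in the forebrain, genes used in all cells and genes of other lineages shared the unmethylated state. Of 34 listed forebrain regulators, 21 had CpG-dense promoter tiles, and their 45 tiles had medians of 0.448 to 1.62%. The 22 tiles of 14 housekeeping genes lay between 0.287 and 1.197%, and the 11 tiles of 6 regulators of mesoderm and endoderm between 0.640 and 1.31%. The 12 tiles of 5 pluripotency genes (Fgf4, Klf4, Sall4, Sox2 and Tbx3) reached at most 1.14%. None of the 90 tiles of these 4 lists reached 20% or was called different between conditions, which for so few tiles is near the shares of the class (0.695 and 0.0662%).

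At Zic2, a zinc finger regulator of forebrain patterning, the control values ran from 0.218 through a median of 0.767 to 1.47% and the EtOH-exposed values from 0.224 through 0.709 to 2.79%. Barhl2, a homeobox regulator of the dorsal diencephalon, had a control median of 0.483% (0 to 1.66%) and an EtOH-exposed median of 0.802% (0.0997 to 2.74%). The Zic2 and Barhl2 tiles lay in the windows of these genes but nearer to the start of a neighbouring gene. The tile of Actb, which encodes cytoplasmic actin, had a control median of 1.12% (0 to 1.81%) and an EtOH-exposed median of 0.656% (0.186 to 3.55%). The conditions overlapped at these 3 tiles, with an exact two-sided permutation p of 0.622 at Zic2 and 0.753 at Actb.

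Regulators of other lineages and of pluripotency also had low levels. Isl1, a regulator of heart and motor neuron precursors, had control values of 0, 0.523 and 0.974% (lowest, median, highest) and EtOH-exposed values of 0, 0.978 and 3.45%, with 7 of 13 EtOH-exposed embryos above the highest control (exact two-sided permutation p = 0.186). Gata4, a regulator of heart and endoderm, stood at 1.06 ± 0.507% in controls (n = 5) and 1.12 ± 1.12% in EtOH-exposed embryos (n = 16). Sox2, which is shared by pluripotent and neural stem cells, stood at 0.995 ± 0.721% (n = 5) and 1.13 ± 0.891% (n = 16), with an exact two-sided permutation p of 0.764.

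Methylated tiles were more frequent far upstream of the TSS than near it, without a steady gradient, and less frequent the more CpGs a tile held. Tiles at 20% or more made up 0.496% of the tiles from 0 to 100 bp downstream (35 of 7061) and 0.604% of those in the 100 bp upstream (33 of 5468). From 900 to 1000 bp upstream they made up 3.20% (8 of 250), but the lowest share, 0.324% (4 of 1234), was found from -400 to -300 bp. By CpG number, the share fell from 1.51% at 8 to 9 CpGs (79 of 5220) through 0.710% (35 of 4930) and 0.401% (23 of 5737) to 0.190% at 15 or more CpGs (10 of 5277).

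**Figure D3:**
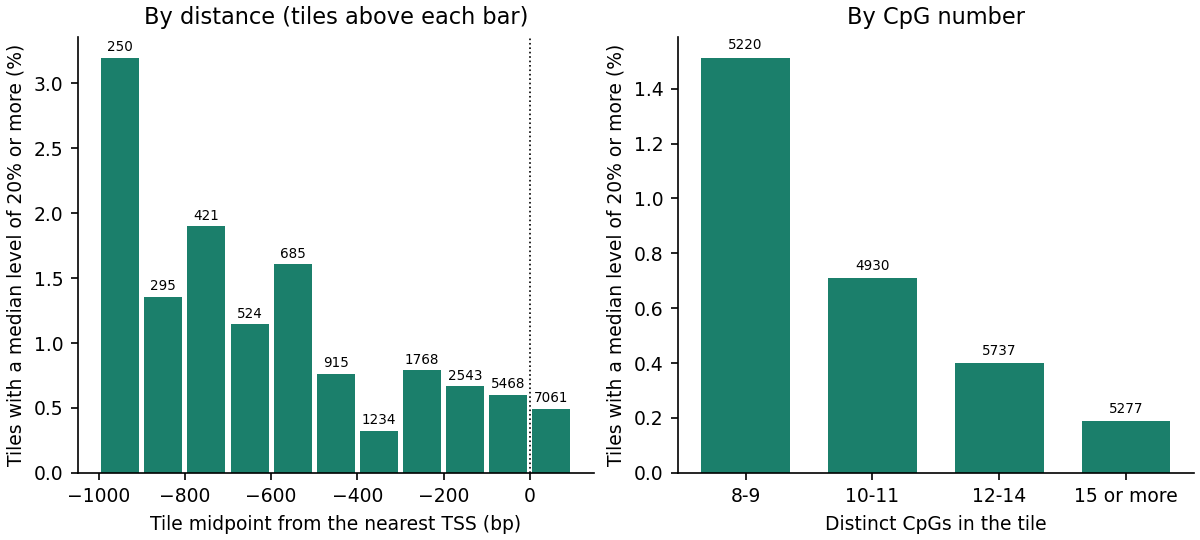
Share of CpG-dense promoter tiles with a median level of 20% or more (percent), by the position of the tile midpoint from the nearest TSS (left, base pairs, dotted line at the TSS) and by the number of distinct CpGs (right). Numbers above the bars are tiles; the share is highest in the bin farthest upstream, with 3.20% of 250 tiles, and falls at each step of CpG number.

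Both contrasts had the same direction in each embryo. The mean level of 1075 tiles more than 500 bp upstream exceeded that of 9542 nearer tiles by 0.544 ± 0.0633 percentage points (SD over embryos), and it was higher in 22 of 22 embryos. The gap was 0.569 ± 0.0649 in controls and 0.534 ± 0.0622 in EtOH-exposed embryos. When each tile was counted at every TSS in reach instead of the nearest, the gap was 0.141. The 2519 tiles with 8 or 9 CpGs exceeded the 2630 tiles with 15 or more by 0.814 ± 0.0672 percentage points, again in 22 of 22 embryos, and by 0.501 when counted at every TSS in reach.

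The methylated tiles included many genes used in germ cells. Of 44 listed germline genes, 13 had CpG-dense promoter tiles, and 15 of their 20 tiles reached 20%, 11 of them 80%. The median over the 20 tiles was 81.5%, against 0.816% over the class. The methylated ones were starts of genes of meiosis (Sycp1 and Hormad1), of the small RNA pathway that silences transposons in germ cells (Mael and Tdrd1), of germ cell regulators (Dazl, Sohlh2 and Dmrtb1) and of sperm proteins (Slc25a31 and Tex101). Stag3, a meiotic cohesin subunit (0.928%), and Smc1b, another (3.43%), had unmethylated tiles, both nearer to the start of a neighbouring gene.

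The spread between embryos differed among these tiles. At Sycp1, a component of the synaptonemal complex, the 5 control values were 95.6, 95.7, 94.3, 93.8 and 96.7%, and the EtOH-exposed embryos ran from 89.1 through a median of 94.8 to 97.3%. At Tex101, a surface protein of germ cells, the control values ran from 93.9 through 95.2 to 97.1% and the EtOH-exposed values from 88.7 through 95.1 to 99.03%. The conditions overlapped at both tiles, with an exact two-sided permutation p of 0.557 at Sycp1 and 0.729 at Tex101. At Tdrd1 the level was 75.5 ± 2.34% in controls (n = 5) and 78.3 ± 5.34% in EtOH-exposed embryos (n = 16). Other tiles varied more. At the Mael tile starting at 166238601 the controls stood at 86.4 ± 5.12% (n = 5) and the EtOH-exposed embryos at 78.9 ± 7.17% (n = 16, 58.0 to 86.2%), and at Hormad2 the controls ranged from 42.6 to 63.4% and the EtOH-exposed embryos from 34.9 to 53.8%. None of the 20 germline tiles was called different between conditions, where 0.0662% of the class was.

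Boll, an RNA-binding protein of meiosis, showed a boundary within 1 promoter. The tile chr1:55362901-55363000, printed above, had a median of 37.5% and its neighbour 34.02%, whereas the tiles starting at 55363301, 55363401 and 55363501 had 3.52, 1.19 and 1.06%. The tile with the most CpGs (20) was the one at 1.06%. In the upper tile the controls stood at 40.01 ± 2.11% (n = 5) and the EtOH-exposed embryos at 36.3 ± 3.38%, with 11 of the latter below the lowest control.

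**Figure D4:**
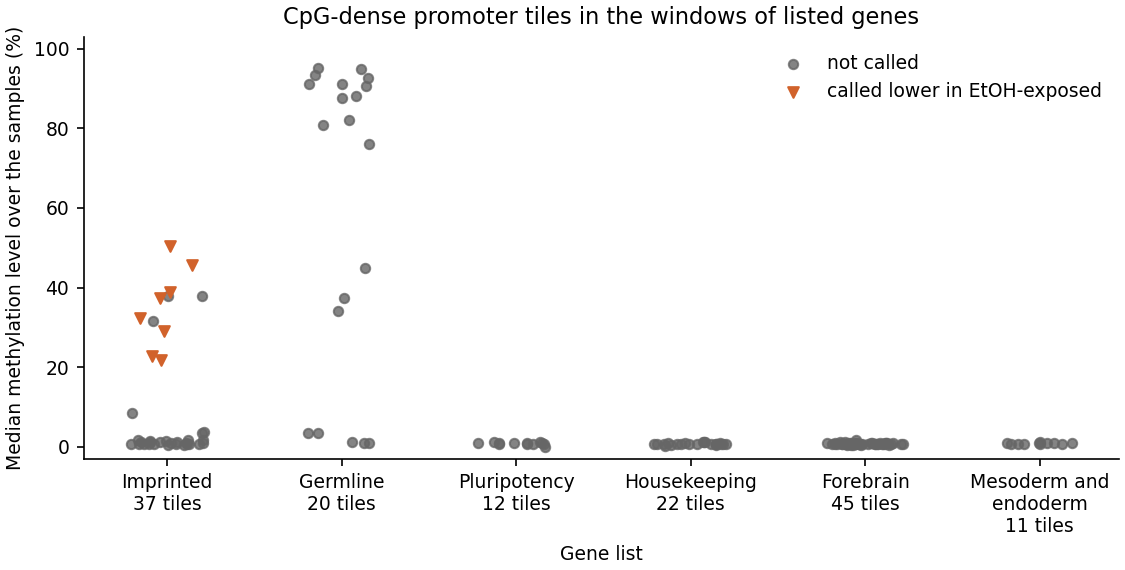
Median methylation level of each CpG-dense promoter tile over the samples (percent), 1 point per tile, by gene list; triangles mark tiles called lower in EtOH-exposed embryos and the horizontal scatter within a list has no meaning. Germline tiles lie mostly above 75%, imprinted tiles near 0 or between 20 and 51% apart from Igf2r at 8.57%, and the 4 other lists near 0.

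In 10 genes a CpG-dense tile at 60% or more and another under 5% lay at different annotated starts or at different distances from a start. The start nearest to the methylated tile was curated in Jade1 and only predicted in the other genes. This tile overlapped an annotated exon in each gene except Jade1 and Pcca. Jade1, a subunit of a histone acetyltransferase complex, had the highest level of the class at 1 start: the control values at chr3:41555501-41555600 ran from 95.5 through 98.1 to 99.2% and the EtOH-exposed values from 92.3 through 97.2 to 100%. Cdh23, a cadherin of inner ear hair cells, had 1 tile at 96.3% and 4 tiles at 0.629 to 0.844% at another start. Pcyt2, an enzyme of phosphatidylethanolamine synthesis, had a tile at 96.1% at -803.5 bp from a start, while the tile at -3.5 bp had 0.721%. The other 7 genes were Camkk2, Klhdc8b, Npffr1, Pcca, Rhov, Ss18l1 and Tmtc1, with upper tiles at 65.0 to 93.2%.

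Imprinted genes held tiles of intermediate level. Of 37 listed imprinted genes, 14 had CpG-dense promoter tiles, with 37 tiles in all. Of these, 11 stood at 20 to 80%, in Gnas, Inpp5f, Mcts2, Plagl1, Sgce and Snrpn, and none reached 80%. The 25 tiles under 5% included Igf2, a fetal growth factor, Grb10, an adaptor that restrains growth signals, and Dlk1, a membrane regulator of differentiation. At the Igf2 tile the control values ran from 0.346 through 0.828 to 1.36% and the EtOH-exposed values from 0.173 through 0.697 to 2.82%. Igf2r, the receptor that removes Igf2, lay between at 9.33 ± 1.71% in controls (n = 5) and 8.37 ± 3.23% in EtOH-exposed embryos.

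The question of the design, whether EtOH exposure changed methylation, was asked at each tile and over the class. Over 10617 CpG-dense promoter tiles with a value in all embryos, the mean level was 1.44 ± 0.446% in controls (n = 6, 1.14 to 2.03%) and 1.46 ± 0.796% in EtOH-exposed embryos (n = 16, 0.634 to 2.93%). The 6 EtOH-exposed embryos under the control range were those with the lowest library background, and the 3 over it were EtOH-exposed 4, 5 and 6. With the background subtracted and the rest rescaled, the means were 0.452 ± 0.0125% and 0.408 ± 0.0540%, with 10 EtOH-exposed embryos below and 2 above the control range. The 10496 unmethylated tiles among them had means of 0.0559 and 0.0363%. Most of the class mean thus came from the few tiles at 5% or more. The share of tiles under 10% was 99.17 ± 0.0494% in controls and 99.23 ± 0.0666% in EtOH-exposed embryos, with 9 of the latter above the control range and none below. Across bins of distance from the TSS, the difference between conditions ranged from -0.0596 to 0.0694 percentage points.

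At methylated tiles the EtOH-exposed embryos had lower means than the controls over all libraries. In the 6 control and 7 EtOH-exposed libraries with backgrounds of 0.684 to 1.60%, the difference was -0.519 percentage points at 20 to 80% and 0.567 at 80% or more. The conditions were not matched in background within that range, as described below. Over 35 tiles at 20 to 80%, the mean was 41.0 ± 2.23% in controls (37.1 to 43.2%) and 35.8 ± 6.20% in EtOH-exposed embryos (26.6 to 43.4%), with 8 EtOH-exposed embryos below and 1 above the control range. Over 25 tiles at 80% or more it was 90.2 ± 1.48% (87.4 to 91.6%) and 88.7 ± 2.66% (83.4 to 91.9%), with 6 below and 3 above. Counted by tile, the EtOH-exposed mean was the lower one in 60 of 77 tiles at 20 to 80% (median difference -3.63 percentage points) and in 55 of 70 tiles at 80% or more (-0.902). Among tiles under 5%, it was lower in 8131 of 20891, with a median difference of 0.0691. Tiles read in the same libraries are not replicates, so these counts describe the tiles alone.

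EtOH-exposed embryos also differed more among themselves. The SD was larger in EtOH-exposed than in control embryos at 17541 of 20891 tiles under 5% (84.0%), at 55 of 77 tiles at 20 to 80% (71.4%) and at 57 of 70 tiles at 80% or more (81.4%). The median SD at 20 to 80% was 5.76 percentage points in controls and 7.51 in EtOH-exposed embryos. Tiles of a library share its background and are not replicates, and the groups differ in size, so these counts describe the tiles alone. With 1 value per embryo, the mean distance from the median of the group was 0.293 percentage points in controls and 0.598 in EtOH-exposed embryos over the class. At 20 to 80% it was 1.54 and 5.18. The spread of library background, above, ran the same way, and its part in this was not tested.

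For the test of single tiles, a differentially methylated region (DMR) was a tile with q below 0.01 in a logistic test over summed reads, adjusted over all 114430 tiles, together with a gap of 10 percentage points or more between the levels of the summed reads. Among CpG-dense promoter tiles 14 were decreased, where 1240 of all tiles (1.08%) were decreased, and none was increased, where 59 of all tiles (0.0516%) were. The rate of decreased tiles in the class was thus 0.0662%, with 0.371% called in either direction among CpG-dense tiles outside promoters and 0.718% among CpG-poor promoter tiles. None of the 20891 tiles under 5% was called, 12 of the 77 at 20 to 80% (15.6%) were, and 1 of 126 at 5 to 20% and 1 of 70 at 80% or more were. A tile with a median under 5% has little room to fall by 10 percentage points. The lack of decreases there, and the low rate of the class, thus follow in part from the definition. Other analysed tiles at 20 to 80% were called at 10.7%.

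The size of the difference decided most of these outcomes. A q below 0.01 alone was met by 5759 CpG-dense promoter tiles, 2555 lower and 3204 higher in EtOH-exposed embryos, but 5745 of them differed by less than 10 percentage points. The highest increase of the coverage-weighted level was 9.91 points at Papolb, a poly(A) polymerase of the testis, where the plain means over embryos differed by 3.85. This logistic test treats all reads of a condition as independent and does not use the spread between embryos. When that spread was allowed for with an overdispersion factor and an F test, no tile met the definition, in the class or elsewhere: the smallest q was 0.0425 over all tiles and 0.765 among the 14. At an unadjusted p under 0.05 this F test took 661 tiles of the class (3.12%) against 6598 of all tiles (5.77%). It took 10 of the 14, but these had been picked for large differences in the same reads. Their share therefore cannot be set against that of the class. The limma test called no tile of the class and none of all tiles (smallest q 0.994), with 221 tiles of the class (1.04%) and 5093 of all tiles (4.45%) at an unadjusted p under 0.05.

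**Figure D5:**
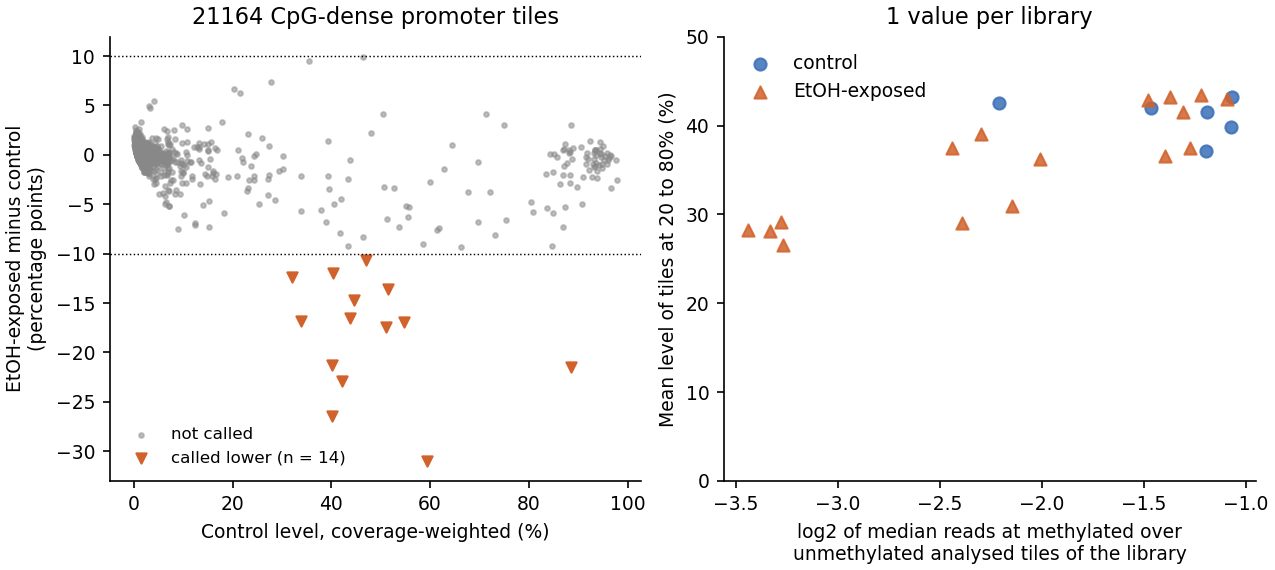
Left, difference EtOH-exposed minus control (percentage points) against the control level (percent, coverage-weighted) for 21164 CpG-dense promoter tiles; the 14 triangles below the dotted line at -10 were called lower. Right, mean level of tiles at 20 to 80% (percent, axis from 0) against the log2 ratio of reads at methylated over unmethylated tiles, 1 point per library; 4 EtOH-exposed libraries with ratios under -3 lie at 26.6 to 29.2%.

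Of the 14 decreased tiles, 8 lay in the window of a gene on the imprinted list, which held 37 tiles, 11 of them at 20 to 80%. Called tiles made up 0.0662% of the class and 15.6% of its tiles at 20 to 80%. The count is given as a description because the list was chosen with earlier results of these data known. The 8 tiles belonged to Sgce, Inpp5f, Snrpn, Mcts2, Gnas with 3 tiles, and Plagl1, whose window holds the start of the noncoding RNA Hymai. The other 6 were 2 tiles each of Tmem267 and the predicted RNA Gm24463, and 1 each of Rab10os and Gm30189, the latter next to a called Gnas tile. All 14 were also lower by the plain mean over embryos, which their choice by a fall in the same reads made likely. Of the 14, 12 had a larger SD in EtOH-exposed embryos.

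Sgce, which encodes epsilon-sarcoglycan of muscle and brain membranes, had the largest decrease of the coverage-weighted level (-31.0 percentage points); by the plain mean over embryos, its difference of -20.7 was exceeded by Gm24463 (-24.0) and Inpp5f (-23.5). At chr6:4747401-4747500, which overlaps an exon, the 5 control values were 61.7, 57.5, 62.2, 62.6 and 44.3%. The EtOH-exposed values ran from 2.48 through a median of 36.4 to 82.4%, so that 8 lay below and 4 above the control range. The coverage-weighted level was 59.4% in controls and 28.4% in EtOH-exposed embryos, and the overdispersion test gave an unadjusted p of 0.0163. Counting error was at most 8.56 percentage points (1 side of the 95% Wilson interval) in any embryo. This takes each call as an independent molecule, though a read gives a call at each CpG it covers, so it is understated.

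Inpp5f encodes a phosphoinositide phosphatase, and its tile at chr7:128688201-128688300, at -619.5 bp from a start and outside exons, was printed above. The 5 control values were 76.2, 39.4, 36.8, 36.1 and 44.7%, and the EtOH-exposed values ran from 8.18 through 22.3 to 42.7%. Here 11 of 15 EtOH-exposed embryos read less than any control, and the overdispersion test gave an unadjusted p of 0.0171. Snrpn, a protein of the splicing machinery, had control values of 39.8, 21.6, 39.9, 33.0 and 39.1% at chr7:60005101-60005200 and EtOH-exposed values from 2.10 through 21.4 to 34.5%. At Snrpn 8 EtOH-exposed embryos lay below every control. Within the 6 control and 7 EtOH-exposed libraries with backgrounds of 0.684 to 1.60%, neither tile was called. The differences there were -8.41 percentage points at Inpp5f and -9.89 at Snrpn.

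The exonic Gnas tile at chr2:174297301-174297400 stood at 54.6 ± 12.4% in controls (n = 5) and 37.1 ± 18.9% in EtOH-exposed embryos (n = 16). Of the latter, 9 lay below and 1 above the control range. The difference at this tile was -1.89 percentage points within the 6 control and 7 EtOH-exposed libraries with backgrounds of 0.684 to 1.60%. The overdispersion test gave an unadjusted p of 0.0901. In the exonic Gnas tile at chr2:174327801-174327900, at the same gene for the stimulatory G protein subunit, the control values ran from 37.8 through 44.6 to 55.2% and the EtOH-exposed values from 5 through 29.2 to 44.4%. There 11 of 16 EtOH-exposed embryos lay below the lowest control. The Plagl1 window, at a zinc finger gene that restrains growth, gave 47.0 ± 12.9% in controls (n = 6) and 38.0 ± 13.4% in EtOH-exposed embryos (n = 16). Of the latter, 1 lay below and 2 above the control range. Within the same 6 control and 7 EtOH-exposed libraries the difference in this window was -1.59 percentage points and was no longer called.

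Tmem267, a gene for a transmembrane protein, had 4 tiles, of which 1 with a low and 1 with a high level were called. At chr13:119488101-119488200 the control values ran from 25.6 through 38.2 to 56.9% and the EtOH-exposed values from 1.90 through 17.0 to 62.7%, with 11 below and 1 above the control range. At chr13:119488501-119488600 the controls stood at 89.0 ± 2.28% (n = 5) and the EtOH-exposed embryos at 75.8 ± 16.7% (n = 15), with 9 below and 3 above. EtOH-exposed 4, 5 and 6, which read low at Sgce, Inpp5f and Snrpn, had 93.3, 96.3 and 95.2% there. The tiles starting at 119488201 (median 23.9%) and 119488401 (89.4%), next to the called ones, differed by -5.67 and 0.288 percentage points and were not called. By the plain mean over embryos the former differed by -14.6, with 9 of 15 EtOH-exposed embryos below and 1 above the control range.

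Rab10os, a noncoding RNA opposite to Rab10, was called with a coverage-weighted level of 40.1% in controls and 13.6% in EtOH-exposed embryos, yet its conditions overlapped fully. The 5 control values at chr12:3235501-3235600 were 40.2, 48.3, 27.3, 7.69 and 0%, the last from 0 of 256 calls. This allows a level of up to 1.17% if calls are taken as independent. All 15 EtOH-exposed values, from 1.11 through 9.81 to 33.2%, lay inside the control range. Controls 1 and 2 had reads at all 11 CpGs of the tile and the other 3 controls at 5 or 6, so the values do not average the same CpGs. Without control 2, whose library had the most reads there, the difference was -17.4 percentage points in place of -26.5. The overdispersion test gave an unadjusted p of 0.000242, the smallest of the 14, and a q of 0.765, while the exact two-sided permutation p over embryos was 0.101.

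A second property of the libraries moved with the level at methylated tiles. The log2 ratio of the median reads at methylated (80% or more) to unmethylated (under 1%) analysed tiles was -1.37 ± 0.437 in controls and -2.11 ± 0.849 in EtOH-exposed embryos. The 4 libraries with a ratio under -3, EtOH-exposed 4, 5, 6 and 14, had mean levels of 26.6 to 29.2% at tiles of 20 to 80%. Of 6 libraries from -3 to -2, 1 a control, levels ran from 29.0 to 42.5%, and of the 12 from -2 up, 5 of them controls, from 36.6 to 43.4%. In the 4 libraries with the lowest ratio, Sgce read 4.57, 2.93, 2.48 and 5.69%, and Snrpn 5.10, 2.61, 2.67 and 2.10%. The part of this ratio in the differences was not tested.

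The difference at tiles of 20 to 80% was smaller over a range of background that held libraries of both conditions. In the 6 control and 7 EtOH-exposed libraries with a background of 0.684 to 1.60%, a grouping chosen after seeing the data, the difference in mean level was -0.519 percentage points, against -5.23 over all embryos. At 80% or more it was 0.567 against -1.43. Background was not matched within this range: controls 3 to 6 lay at 0.684 to 0.710%, below all 7 EtOH-exposed libraries. EtOH-exposed 7, 10, 11, 13, 15 and 16 lay at 0.871 to 1.12%, and controls 1 and 2 with EtOH-exposed 8 at 1.46 to 1.60%. The part of background in the smaller difference was not tested. Within the 6 control and 7 EtOH-exposed libraries, 8 tiles of the class were decreased and 4 increased. The share over all analysed tiles in these libraries is not given, so the counts describe the class alone. Of the 14 named above, 7 were still called, among them Sgce at -12.3, Rab10os at -24.0 and the Tmem267 tiles at -19.3 and -22.5 points. Snrpn had -9.89, Inpp5f -8.41 and the Plagl1 window -1.59. Without EtOH-exposed 4, 5 and 6, the difference at 20 to 80% was -3.35, and 12 of the 14 were still called.

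Some tiles varied most among controls. At Slc6a3, the dopamine transporter, control 1 read 90% (27 of 30 calls, at 3 of the 10 CpGs). The other 4 controls read at most 2.56% there and the EtOH-exposed embryos at most 4.25%. At Rasa1, a brake on Ras signalling, 2 controls read 33.2% (683 calls) and 59.5% (reads at 3 of the 8 CpGs). The other 4 controls read 0.348 to 1.22%, and the EtOH-exposed embryos 0.137 to 7.55%. The exact two-sided permutation p at Rasa1 was 0.060. At the Mcts2 tile chr2:152686901-152687000, control 2 read 91.3% and the other controls 32.7 to 49.7%. Control 2 had the highest number of reads per tile among controls and values for 18104 tiles.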

How the data were processed

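Reduced representation bisulfite libraries of 6 control and 16 EtOH-exposed forebrains were analysed. Per the submitters' processing notes and methods, the authors trimmed reads with Trim Galore 0.3.3, aligned them to mm10 with BSMAP 2.90 and made a table per sample for methylKit. Each deposited table gives, per cytosine and strand, the coverage as a read count and the percent of methylated and unmethylated reads. The labels used here name no batch, litter or sex. Incomplete conversion, PCR duplicates and the choice of MspI fragments can all change these values.

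From the deposited counts, methylated reads were restored as coverage times percent. A strand of a CpG with fewer than 10 reads was dropped, the strands left were merged, and reads were summed per 100 bp tile. All CpGs lay at a CpG of GRCm38, whose RefSeq annotation gave the TSSs. Each tile was tested by a logistic likelihood ratio test with Benjamini-Hochberg adjustment over 114430 tiles. The overdispersion F test and limma 3.58.1 (R 4.3.3, empirical logit with 0.5 added) were alternatives. Means over tiles are given with SD and n and have no p, because the tiles were chosen as a set. The exact permutation test ran over all 74613 assignments for 22 embryos, or fewer where values were missing. Intervals are 95% Wilson intervals, and a count of 0 allows 3 calls. Both take the calls of a tile as independent, though a read can give calls at several CpGs, so they are too narrow. Computation used Python 3.11.15, NumPy 2.4.6, SciPy 1.17.1 and pandas 2.3.3, and the tests were tried on simulated data. Up to 27 CpGs per tile and depth set the precision given in the text.

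The rule for named genes took 1 tile per gene: the 10 genes with the highest median level, the 5 largest called decreases and increases, the 5 with the most CpGs, the 5 with the largest control SD, and the 4 per list with the most CpGs in a tile. Genes on chromosome 18 and genes without a standard symbol (LOC, Gm, Rik) were to be counted only. Other genes and tiles named here, including the 3 called tiles of Gm genes, were chosen after their values were seen. The tiles and gene lists were chosen with earlier results of these data known. Replicate numbers of the 2 conditions were treated as names. Tiles on sex chromosomes were not used here. Alternatives covered coverage, CpG number, promoter window, transcript class, CCGG sites, weighting, libraries left out and library groups.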

Additional observations from a re-analysis of the deposited data

Results flagged for a closer look

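In 11 of 66 groups of 4 to 10 embryos tested at the named tiles (16.7%), 1 control lay far from the other controls by Dixon's test, which chance alone does in about 1 in 20. The tiles included 5 chosen for their large control SD, where 2 of the 11 lay (Slc6a3 and Mcts2), so this share cannot be read against chance. No cause was tested.

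At tiles with intermediate or high levels, control 6 read 44.3% at Sgce, where the other controls read 57.5 to 62.6%, and 21.4% at the Hymai tile of the Plagl1 window, where the others read 47.2 to 56.1%. Control 1 read 76.2% at Inpp5f, where the others read 36.1 to 44.7%, and 90% at Slc6a3, where the others read 0 to 2.56%. Control 2 read 91.3% at the Mcts2 tile starting at 152686901, where the others read 32.7 to 49.7%.

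At unmethylated tiles the distances were small. Control 1 read 1.37% at Afdn (others 0.466 to 0.697%), 2.82% at Dlk1 (0.531 to 0.702%) and 4.55% at Foxa2 (0.566 to 1.07%). Control 2 read 1.70% at Hectd2 (0.304 to 0.825%) and 3.58% at Pgam1 (0 to 1.08%). Control 6 read 0% at Tbx3 (0.795 to 1.04%). Controls 1 and 2 were the controls with the highest library background, at 1.56 and 1.60%, and control 6 the one with the fewest reads per tile, at a median of 270.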

How the results depend on the processing

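The 14 decreased tiles became 0 with the overdispersion test and 0 with limma, 48 with a difference of 5 percentage points, 24 from 6 CpGs, 4 from 12 CpGs, 24 with 3 embryos per condition and 6 with a value in all 22. They became 24 within the library group of 2 control and 1 EtOH-exposed embryos, a comparison with 1 library that is no test of the condition, 8 within that of 6 and 7, and 13 to 18 when each embryo was left out in turn. The count of 0 increased tiles became 6 at 5 percentage points, 1 at a coverage of 5, 1 at a coverage of 20, 2 from 6 CpGs, 2 with 3 embryos per condition, 2 without EtOH-exposed 4, 5 and 6, 7 and 4 within the library groups, and 0 to 2 when embryos were left out. Under a replicate block of same-numbered embryos (12 samples) 30 were decreased, as many as in the same 12 without pairing (30). None of these counts has the share over all tiles at the same setting beside it, so they describe the class alone. Deviations of same-numbered embryos correlated at -0.260 to 0.205 over 60 tiles and no embryo correlated best with its own number, so the numbers paired nothing.

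The number of tiles was 11014 from 12 CpGs and 10617 with a value in all 22. The difference between conditions in the gap to CpG-dense tiles outside promoters (0.158) became 0.738 over every tile with a value and 1.31 when weighted by coverage (0.133 to 0.178 when embryos were left out), and that in the gap to CpG-poor promoter tiles (0.315) became 1.02 and 1.66 (0.276 to 0.345). The difference in the share of tiles under 10% (0.0648) became 0.265 when weighted. Counted at every TSS in reach, the contrast by distance became 0.141 and that by CpG number 0.501. The Sgce difference turned to 1.88 within that group, which holds 1 EtOH-exposed library. Of the other alternatives for differences at named tiles, 518 kept direction and call and 55 lost the call, 14 of them under each of the overdispersion and limma tests. Part of the 518 was fixed in advance. Changes of CpG number, promoter window or transcript class redrew the class but left the test of each tile unchanged. A threshold of 5 percentage points cannot lose a call. The second Gm24463 tile lost it without control 1 (-7.11), control 4 (-9.98) or EtOH-exposed 2, 8, 12 or 13 (-9.62 to -9.997), Mcts2 without control 5 (-8.63) or EtOH-exposed 6 (-9.70), and the Gnas tile at 174284801 without control 4 (-9.15). Without control 2 that Gnas tile had -19.8. The causes were not tested. Depth limits single values most where reads were few, as in control 1 at Slc6a3 (30 calls).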

Other observations

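Other methylated CpG-dense promoter tiles lay at genes known for roles in the testis or in germ cells that were not on the germline list. They were chosen here after their values were seen, from no fixed list and without a count. How frequent such genes are among methylated tiles was therefore not tested. Lower levels were read at tiles of Mei1 (9.68%), Tssk6 (10.8%) and Rbm46 (9.20, 9.94 and 19.4%), which also have such roles. Tiles of Lat (94.8%), Slc30a3 (91.7%) and Aqp2 (87.6%), not chosen for such roles, were methylated too. Hsf5, a heat shock factor of male meiosis, had 3 tiles at 81.6 to 88.2%, and Naa11, an acetyltransferase of the testis, had 1 at 93.5%. Rpl39l, a ribosomal protein of male germ cells, read 93.4 ± 1.11% in controls (n = 6) and 91.9 ± 1.86% in EtOH-exposed embryos (n = 16). H2ac1, a histone of the testis, had 2 tiles at 93.4 and 93.7%. Intermediate levels were read at Pnldc1, which trims the small RNAs of germ cells (77.2%), Papolb (55.7 and 27.0%), Henmt1, which methylates those small RNAs (40.7 and 29.9%), and Rbmxl2, an RNA-binding protein of meiosis (35.9%). At Sox30, a regulator of spermatid genes, the level fell over 3 adjoining tiles toward the start from 53.5 through 25.7 to 9.65%. At Pnldc1 the controls read 81.7 ± 4.05% (n = 5) and the EtOH-exposed embryos 71.9 ± 11.4% (n = 16), with 9 of the latter below the lowest control, and the tile was not called.

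Short motifs of known promoter factors were searched on both strands of each tile, with overlaps between motifs allowed. The GC box GGGCGG occurred in 44.8% of CpG-dense promoter tiles, 32.5% of CpG-dense tiles outside promoters, 18.7% of CpG-poor promoter tiles and 19.7% of all tiles. It occurred in 24.7% of the CpG-dense promoter tiles at 20 to 80% and 27.1% of those at 80% or more. The NRF1 core CGCATGCG occurred in 0.964% of CpG-dense promoter tiles, 0.288% of CpG-dense tiles outside promoters and 0.307% of all tiles. In the same order, the E2F core TCCCGC occurred in 23.2, 19.3 and 11.5%. TATAAA occurred in 0.567, 0.273 and 1.36%, and CCAAT in 7.47, 3.86 and 8.59%. The class thus held the last 2 motifs less often than all tiles but more often than CpG-dense tiles outside promoters. These shares describe letters in the tiles, which the choice by CpG number also shapes, and say nothing of binding.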
